A study of Macaca mulatta with 2 samples.

Results

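The cells described here are circulating CD4+CD8+ double positive (DP) T cells with at least 1 transcript of TRAV38-1, a variable segment of the T cell receptor (TCR) alpha chain, and with no transcript of GZMB, the granule protease of cytotoxic cells, or of TRAV13-1, another alpha-chain segment. There were 115 such cells among 7601 cells that passed the quality filters (1.51%; 95% exact binomial interval 1.25 to 1.81). They were set against 3922 comparison cells with transcripts of the TCR subunit CD3E and none of GZMB or TRAV38-1. TRAV38-1, GZMB, TRAV13-1 and CD3E chose the cells, so their own values are a description only.

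All cells came from the fresh blood of 1 healthy, untreated male rhesus monkey of 6 years. CD4+ cells were bound to magnetic beads and released, and CD8+ cells were then taken from them, so bead selection defined the population. 1 library of 5′ gene expression and 1 library of CD4 and CD8 antibody tags, called feature barcodes (FB), were made from the same cells and share their cell barcodes. With 1 animal and 1 library of each kind there is no replicate: no test was possible, and every interval covers counting error only.

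The alpha chain of a TCR is assembled in the thymus by joining 1 of many variable (TRAV) segments to a joining segment, and it pairs with a beta chain assembled in the same way from TRBV segments. Both alpha gene copies of a cell can be rearranged, so a T cell can carry transcripts of more than 1 TRAV segment, whereas most cells make 1 working beta chain. Cells that share only a TRAV segment usually differ in the rest of the receptor and may belong to unrelated lineages, and DP cells of the blood are mature T cells that carry both coreceptors, unlike the immature DP stage of the thymus.

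TRAV38-1 was read at low numbers of unique molecular identifiers (UMIs, each standing for 1 captured transcript). It had 1 UMI in 38 of the 115 cells, 2 UMIs in 15 and 3 or more in 62, with a median of 3. The highest cell held 39 UMIs and the next 11. The 38 cells at 1 UMI sit just inside the rule, and cells at 0 sit just outside it. In all, 173 kept cells had TRAV38-1. Of these, 55 also had GZMB (31.8%; 24.9 to 39.3) and were left out, while 44.3% of the kept cells without TRAV38-1 had GZMB. The remaining 3 had TRAV13-1 and no GZMB. The cells left out for GZMB held much the same amount of the segment, with a median of 3 UMIs and a highest value of 13.

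**Figure D1:**
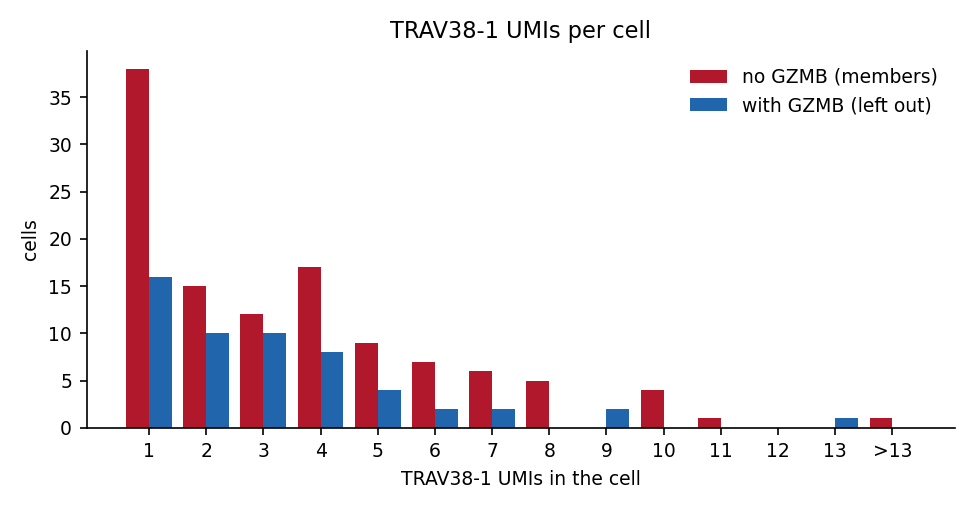
Number of cells (vertical axis) by the count of TRAV38-1 UMIs in the cell (horizontal axis), for the 115 cells without GZMB and the 55 cells left out for GZMB. In both sets 1 UMI is the most frequent value and the median is 3, and 1 cell without GZMB lies beyond 13 UMIs, at 39.

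The segment was also looked for in cells with B cell transcripts and in cells read without CD3E. Among 86 cells with B cell transcripts and no CD3 transcripts, 0 had TRAV38-1, which allows a share of up to 3.49%, at a median of 4137.5 UMIs per cell. Among 290 kept cells without CD3E, 2 had it (0.690%; 0.0836 to 2.47), and these 2 are among the 115 cells. A cell with no CD3E UMI is not shown to be other than a T cell. Since 2.28% of all kept cells had TRAV38-1, these numbers of cells are too small to tell a lower share from that one. Nearly all of the 115 cells had CD3 transcripts of T cells. CD3E was found in 113 of them (98.3%), and CD3D, another CD3 subunit, in 94.8%, against 91.7% of comparison cells. TRAC, the constant part of the alpha chain, stood at 405 CPM (UMIs of the gene per 1000000 gene UMIs), against 391 in comparison cells. Depth was alike, with a median of 3891 UMIs and 1295 genes in TRAV38-1+ GZMB- cells and of 4049.5 UMIs and 1280 genes in comparison cells. Mitochondrial transcripts made up a median of 3.63% and 3.94%.

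Surface CD4 and CD8 were read with the tags. The CD4 FB had a median of 464 UMIs (quartiles 352 and 550.5) in TRAV38-1+ GZMB- cells and of 432 (345 and 532) in comparison cells. The CD8 FB had a median of 382 (184 and 642.5) and of 337 (169 and 600.75). The quartile ranges of the 2 sets of cells overlapped almost wholly. Taking as background the level that 90% of B gene cells stay under, 95.7% of TRAV38-1+ GZMB- cells were positive for CD4 FB and 55.7% (46.1 to 64.9) for CD8 FB, against 95.8% and 50.9% of comparison cells. Both tags were above background in 63 of the 115 cells (54.8%; 45.2 to 64.1) and in 49.4% of comparison cells, so a large part of the bead-selected cells was not CD8 FB positive by this limit. At the transcript level CD4 stood at 168 CPM against 163, and CD8A, the alpha chain of CD8, at 174 against 161. CD8B, the beta chain of CD8, was scarce, with 4 UMIs in 3 of the cells and 7.75 CPM against 18.3 in comparison cells (log2 ratio -1.24; -3.12 to 0.13).

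The genes named alongside TRAV38-1 as marks of these cells did not set them apart. STX3 encodes a syntaxin of the membrane fusion machinery (chromosome 14, 14233184 to 14285435 of Mmul_10, minus strand). Over its 2 features it had 47 UMIs in 30 of the 115 cells, which is 91.0 CPM (66.9 to 121) against 72.7 in comparison cells. The log2 ratio was 0.32 (-0.13 to 0.74). SLC40A1 encodes ferroportin, the iron exporter of the cell (chromosome 12, 76735391 to 76757702, minus strand). It had 8 UMIs in 6 cells and 15.5 CPM against 15.9, a log2 ratio of -0.04 (-1.26 to 0.96). RASD1, a small GTPase gene known to respond to glucocorticoids (chromosome 16, 17319788 to 17321706, minus strand), had 10 UMIs in 9 cells and 19.4 CPM against 14.7, a log2 ratio of 0.40 (-0.68 to 1.30). All 3 intervals include 0, and 72 of the 115 cells held none of these transcripts. Another 41 cells held 1 of the genes, 2 cells held 2, and 0 held all 3, which allows up to 2.61%, so the name rests on TRAV38-1 alone. The same gate was put on the 19 other TRAV segments with at least 50 GZMB-negative cells (51 to 225 cells each). TRAV38-1+ GZMB- cells ranked 4 of 20 for STX3, behind cells with TRAV3 (106 CPM), TRAV1-1 (103 CPM) and TRAV10 (102 CPM). They ranked 13 for SLC40A1 and 5 for RASD1, and for each gene their interval overlapped those of the neighbours in the order.

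**Figure D2:**
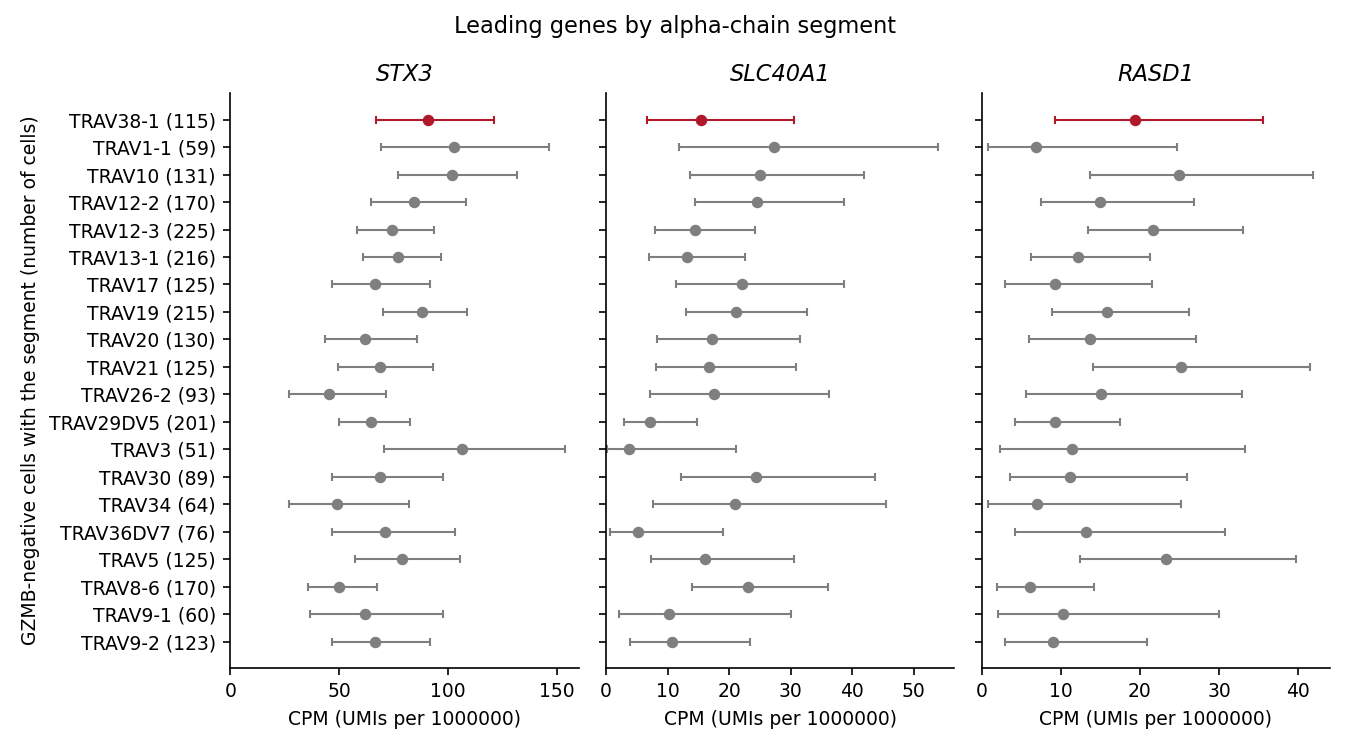
Summed level of STX3, SLC40A1 and RASD1 (horizontal axes, CPM) in GZMB-negative cells with each of 20 TRAV segments, with the number of cells in parentheses; bars are 95% exact Poisson intervals, which cover counting error only. The TRAV38-1 values (91.0, 15.5 and 19.4) lie inside the range of the other 19 segments for all 3 genes.

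The roles of the named genes gave no group that moved as a whole. Of 14 features of the syntaxins and their SNARE partners (STX3 has 2 of them), of 8 iron-handling genes and of 12 glucocorticoid-responsive genes at or above a mean of 20 CPM, 0 were 1.5-fold apart in either direction. For scale, 1.75% of the 4461 features at that level were at least 1.5-fold higher in TRAV38-1+ GZMB- cells (78 features) and 1.21% at least 1.5-fold lower (54 features), on the scale of CPM + 10. The median log2 ratio over all 4461 was 0.06. The medians of the 3 lists were 0.10, -0.11 and -0.03. With such small shares over all features, a count of 0 in these lists says little about them. With the gate on other segments, 0.367% to 6.52% of features were higher, so the TRAV38-1 share lies inside that range. Individual genes of these lists held close to the comparison, among them FTH1, the heavy chain of the iron store ferritin (1410 CPM against 1193), VAMP8, a SNARE of granule fusion (190 against 150 CPM), and FKBP5, a glucocorticoid target (221 against 171 CPM).

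Naive, memory and effector programs were present side by side. Of 13 genes of the naive and stemness list and 14 of the memory list, 0 passed the 1.5-fold mark either way, with median log2 ratios of -0.02 and 0.11. Over all 4461 features 1.75% were higher and 1.21% lower. Counts of 0 in these lists and those below lie near that share, so nothing is read from them. IL7R, the receptor of the survival cytokine interleukin-7, was found in 96.5% of TRAV38-1+ GZMB- cells and 94.0% of comparison cells. CCR7, the lymph node homing receptor, was found in 45.2% and 47.1%. GZMK, a granzyme of less cytotoxic memory cells, was found in 16.5% and 13.5%. Of 8 cytotoxic effector genes at that level 0 passed, and their median was 0.31. The TCR complex list behaved likewise, with 0 of 12 genes past the mark and a median of 0.05. The 4 regulatory T cell genes, the 2 Th2 genes, the 3 Th17 genes and the 2 genes of the Eomes+ Tr1 list that reached 20 CPM also stayed within 1.5-fold.

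The genes of the lists that did pass were few. KLRB1, which encodes the lectin receptor CD161 of innate-like and Th17-type T cells, had 87 UMIs in 29 of the 115 cells (25.2%, against 15.7% of comparison cells), or 168 CPM against 93.4. The log2 ratio was 0.85 (0.52 to 1.16). PDCD1, the gene of the inhibitory receptor PD-1, had 47 UMIs in 27 cells (23.5% against 15.5%), or 91.0 CPM against 51.3, a log2 ratio of 0.83 (0.37 to 1.25). RUNX3, a transcription factor of the CD8 lineage that represses CD4, had 34 UMIs in 29 cells and 65.8 CPM against 38.5, a log2 ratio of 0.78 (0.23 to 1.27). CXCR3, the chemokine receptor of Th1 cells, had 67.8 CPM against 41.8, a log2 ratio of 0.70 (0.16 to 1.19). These intervals lie above 0, but the genes were picked out by passing the mark, and each loses it without the highest cell on either side. The log2 ratios of CPM + 10 were then 0.52 for KLRB1 (17 of its 87 UMIs lay in 1 cell), 0.51 for PDCD1 and 0.31 for CXCR3 (8 UMIs in 1 cell for each), and 0.54 for RUNX3 (3 UMIs in 1 cell). Across the 20 segments PDCD1 in TRAV38-1+ GZMB- cells was the top value, next to 89.5 CPM with TRAV5 cells, so the order of these 2 is not resolved. KLRB1 lay within the range of the others (30.4 to 398 CPM), with TRAV10 cells at the top.

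CCR9, the receptor that guides T cells to the small intestine, was on the other side. Both CCR9 and EGR1, given below, reached the mean of 20 CPM through comparison cells, where they are high. Their values are therefore a description only. CCR9 had 6 UMIs in 6 cells (5.22%, against 10.5% of comparison cells), or 11.6 CPM against 45.4, and the log2 ratio was -1.97 (-3.42 to -0.84). In cells thinned to 2000 UMIs each, which left out 3 of the 115 cells and 200 comparison cells, it was found in 3.57% and 5.88%. The other 5 genes of the CCR9 and gut homing list, with ITGA4 (428 against 475 CPM), ITGB7 (161 against 136 CPM) and ITGAE (52.3 against 44.4 CPM) among them, stayed within 1.5-fold. The 19 other segments ran from 3.49 to 75.9 CPM of CCR9. EGR1, an immediate-early transcription factor of receptor signalling, had 6 UMIs in 3 cells, or 11.6 CPM against 58.5. It was found in 2.61% of TRAV38-1+ GZMB- cells and 3.57% of comparison cells, 1 of which held 190 UMIs. Without the highest cell on each side its log2 ratio of CPM + 10 went from -1.66 to -2.04. The other 11 immediate-early genes were within 1.5-fold. FOS, another of them, stood at 2072 CPM against 2168.

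**Figure D3:**
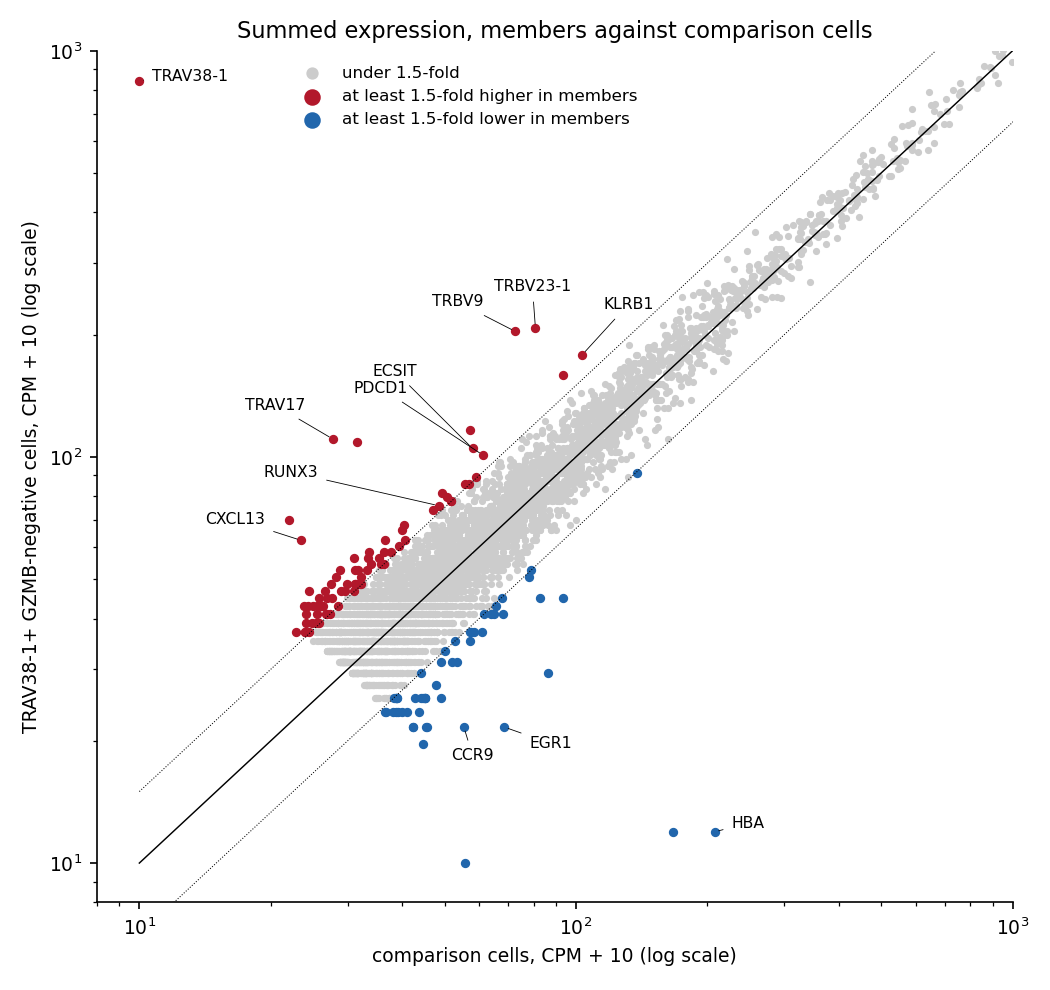
Summed expression in TRAV38-1+ GZMB- cells (vertical axis) against comparison cells (horizontal axis), each as CPM + 10 on a log scale; every point is 1 feature with a mean of at least 20 CPM, the solid line is equality and the dotted lines mark 1.5-fold. Features past 1.5-fold lie mostly below 100 CPM; 151 features beyond 1000 on either axis are not drawn and 0 of them are 1.5-fold apart.

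Several of the highest and lowest ratios came from single cells or from TCR segments. CXCL13, a chemokine of follicular helper cells, had 27 UMIs, 26 of them in 1 cell. Without the highest cell on each side its log2 ratio of CPM + 10 went from 1.41 to -0.83. TRBV9 and TRBV23-1 had 100 and 102 UMIs in 10 and 12 cells. The haemoglobin genes HBA and HBB had 1 UMI each in TRAV38-1+ GZMB- cells, against 198 and 156 CPM in comparison cells. Almost all of the latter came from 1 comparison cell, with 3270 HBA and 2649 HBB UMIs. Among the 12 highest ratios outside the TCR, ECSIT, which takes part in innate immune signalling and in the assembly of mitochondrial complex I, was the most abundant. It had 49 UMIs in 37 cells, no more than 3 in any of them, and 94.9 CPM against 48.0 (log2 ratio 0.98; 0.54 to 1.40). HSD17B12, of fatty acid elongation, had 19 UMIs in 16 cells (36.8 against 14.5 CPM). ERMARD, RNF34, FAM160B1, COPS7A and USP30 made up the rest of the 12 highest, with 17 to 21 UMIs each. Beside HBA, HBB, EGR1 and CCR9, the 12 lowest held the segments TRBV27, TRAV29DV5, TRAV20 and TRBV7-2, together with PSMG1, DMTF1, ZNF622 and CTDSP2 at 6 to 8 UMIs each. All of the 12 lowest but TRBV7-2 reached the mean of 20 CPM through comparison cells. CXCL13, HSD17B12, ERMARD, RNF34, FAM160B1, COPS7A, USP30 and the segment TRAV17, given below, reached it through TRAV38-1+ GZMB- cells. The values of all these features are a description only.

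Transcripts of other cell types were few in TRAV38-1+ GZMB- cells. The 8 B cell genes summed to 31 UMIs in 15 cells, or 60.0 CPM against 86.8, with CD79A the most abundant at 13 UMIs and the B lineage factor PAX5 at 0. Natural killer cell genes gave 14 UMIs (27.1 against 30.2 CPM), with NCAM1 at 0, plasmacytoid dendritic cell genes 13 UMIs, platelet genes 2, red blood cell genes 2 (3.87 CPM against 360 in comparison cells, where 1 cell held 6014 UMIs), monocyte genes 1 (LYZ, S100A8 and FCN1 at 0) and gamma delta T cell genes 1. Their part in the values above was not tested.

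TRAV38-1+ GZMB- cells carried many different receptors. Another named TRAV segment was found in 52 of the 115 cells (45.2%), spread over 14 segments, and a named TRBV segment also in 52 cells (45.2%, against 48.8% of comparison cells), spread over 19 of 21 segments. Of the comparison cells with a named TRAV segment, 19.4% (17.7 to 21.2) had more than 1. The 45.2% (35.9 to 54.8) of TRAV38-1+ GZMB- cells with another named TRAV segment lies above that share. The 2 shares are not wholly alike, since the gate takes 1 given segment and the other share any named segment. The cause of the difference was not tested. TRBV23-1 was found in 10.4% (5.51 to 17.5) against 4.84%, and TRBV9 in 8.70% (4.25 to 15.4) against 6.48%, so no named beta segment was found in more than 12 cells. TRAV39 was found in 6 cells (5.22%, against 0.739%), with 12 UMIs in all. TRGV1, a segment of the gamma chain, was found in 5.22% against 3.44%. Joining segments and assembled receptor sequences were not used here, so which cells share a receptor cannot be told.

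**Figure D4:**
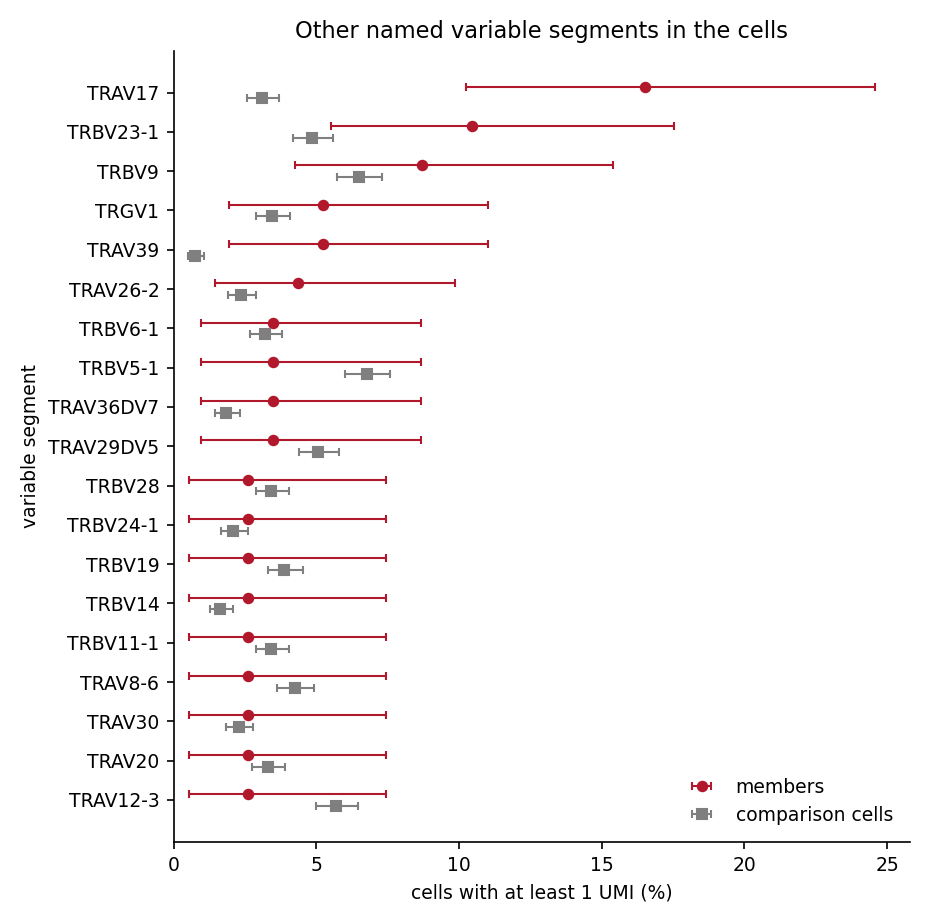
Share of cells with at least 1 UMI (horizontal axis, %) of each named variable segment found in 3 or more TRAV38-1+ GZMB- cells (members), and the same in comparison cells; bars are 95% exact binomial intervals, which cover counting error only. TRAV17 at 16.5% and TRAV39 at 5.22% are the segments drawn whose interval lies clear of that of the comparison cells. Segments were drawn by their number of members, so these values are a description only.

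After TRAV38-1 itself, TRAV17 was the named segment with the highest share of the cells. It was found in 19 of the 115 cells (16.5%; 10.3 to 24.6), against 121 of the 3922 comparison cells (3.09%; 2.57 to 3.68), with 101 CPM against 17.7. Over the gates on the 19 other segments, that on TRAV17 included, the median share of cells with TRAV17 was 1.67%. The 19 cells held 52 TRAV17 UMIs, with a median of 2 and at least 2 in 15 cells. They were also rich in TRAV38-1, with a median of 5 UMIs against 2 in the other 96 cells, and 17 of the 19 had 3 or more. Of the 62 cells with 3 or more TRAV38-1 UMIs, 45 had no TRAV17, so high TRAV38-1 counts did not always come with TRAV17. Their depth was not raised, with a median of 3628 UMIs per cell against 4098. Of the 6 cells with TRAV39, 0 had TRAV17. TRAV17, TRAV39, TRBV23-1 and TRGV1 reached the 5% share for naming segments through the 115 cells, so their values are a description only.

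The 19 cells shared more than both alpha segments. The feature ENSMMUG00000049629, which has no symbol in the tables used here, was found in 13 of the 19 (68.4%), in 4 of the other 96 (4.17%) and in 8 of the 121 comparison cells with TRAV17 (6.61%). ENSMMUG00000060606, also without a symbol, was found in 11 of the 19, in 4 of the 96 and in 2 of the 121. Both were present in 10 of the 19, in 0 of the 96 (which allows up to 3.13%), in 0 of the 121 (up to 2.48%) and in 5 of all 3922 comparison cells. In the deposited feature list ENSMMUG00000049629 stands close to TRBV5-1 and ENSMMUG00000060606 next to TRGV1, which does not name either, and whether they are receptor segments was not tested. A named TRBV segment was found in 2 of the 19. Among the 55 cells with TRAV38-1 and GZMB, 5 had TRAV17, of which 2 had ENSMMUG00000049629 and 1 had ENSMMUG00000060606. This subgroup and the 2 features were picked out after their values were seen, so these values are a description only. Whether the subgroup is 1 lineage was not tested.

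Its expression was set against that of the other 96 TRAV38-1+ GZMB- cells. Among 1059 features with a mean of at least 100 CPM, 19.3% were at least 1.5-fold higher in the 19 cells and 4.34% lower, and the median log2 ratio was 0.15. Naive and stemness genes are given one by one, since CCR7 reached the limit through the 96 cells, where it is high. KLF2 (359 CPM in the 19 cells against 383 in the 96), S1PR1 (244 against 282), LTB (1653 against 1432) and, below the limit, FOXP1 (71.9 against 76.1) lay close together. LEF1 stood at 115 CPM against 188, with an interval that includes 0 (log2 ratio -0.71; -1.97 to 0.34), and CD7 at 259 CPM against 445 (log2 ratio -0.78; -1.57 to -0.09). CCR7 stood at 86.3 CPM against 210 (log2 ratio -1.29; -2.77 to -0.11). Below 100 CPM, TCF7, a transcription factor of naive and stem-like T cells, had 2 UMIs in the 19 cells (28.8 CPM against 139), and PECAM1, an adhesion molecule of naive T cells, had 1 UMI (14.4 CPM against 132). SATB1 and NOSIP each stood at 57.5 CPM against 103, and CD28 at 43.1 against 76.1, all with intervals that include 0. SOX4 and BACH2 had 0 UMIs in the 19 cells, against 26.9 and 13.4 CPM in the 96. MAL had 0 UMIs in both sets. GZMK was found in 0 of the 19 cells, which allows a share of up to 15.8%, and in 19 of the 96. That bound lies not far below the 19.8% of the 96 cells. In CPM the exact interval of GZMK in the 19 cells reached 53.0, against 199 in the 96, and the log2 ratio interval ended at -1.88. GZMK UMIs came several to a cell, with 23 of the 89 in 1 of the 96 cells, which this interval does not cover.

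Of 13 memory genes at that level 4 were higher (S100A4, ITGB1, S100A10 and ANXA2), 9 were within 1.5-fold and 0 were lower. This is not far from the 19.3% of all features, so the values of single genes are given and nothing is read from the list as a whole. S100A4, a calcium-binding protein of memory T cells, had 295 UMIs in 18 of the 19 cells, or 4241 CPM against 1735, a log2 ratio of 1.29 (1.09 to 1.49). ITGB1, the integrin beta 1 chain CD29, had 37 UMIs in 14 cells, or 532 CPM against 213, a log2 ratio of 1.32 (0.73 to 1.89). ANXA2 passed the mark with an interval that includes 0 (0.62; -0.15 to 1.32). Of the innate-like genes, HCST lay above 100 CPM in both sets and stood at 891 CPM against 508 (log2 ratio 0.81; 0.38 to 1.22). IL2RB, a receptor chain of interleukin-2 and interleukin-15, stood at 216 CPM against 67.1. TYROBP, a signalling adaptor of natural killer receptors, stood at 230 CPM, in 4 of the 19 cells, against 56.0. IL2RB, TYROBP and PDCD1 reached the 100 CPM limit through the 19 cells, where they are high. Their values are a description only, and no count is read from their lists. Among cytotoxic genes GNLY, the gene of granulysin, stood at 589 CPM against 251, while GZMK of the same list, just under the limit, was at 0 against 199 CPM. PDCD1 had 17 UMIs in 10 of the 19 cells, or 244 CPM against 67.1 (log2 ratio 1.86; 0.91 to 2.77). IL7R did not separate the sets, with 1438 CPM against 1376, nor did KLRB1, with 201 CPM against 163 (log2 ratio 0.30; -0.64 to 1.14).

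The other cells with TRAV17 did not carry this profile. In the 121 comparison cells with TRAV17, S100A4 stood at 1183 CPM, ITGB1 at 193, PDCD1 at 56.1 and CCR7 at 268. These are near the values of the 96 cells without TRAV17, except for S100A4, which was lower. The CD4 FB had a median of 523 UMIs in the 19 cells and of 451.5 in the 96, and the CD8 FB of 478 and 366.5, with overlapping quartiles. With the 19 cells left out, the 96 still stood above comparison cells in KLRB1 (163 against 93.4 CPM), RUNX3 (69.4 against 38.5) and CXCR3 (67.1 against 41.8), while their PDCD1 (67.1 against 51.3) was closer. Without the highest cell on either side the log2 ratios of CPM + 10 were 0.42, 0.60 and 0.25 for the first 3 genes and -0.02 for PDCD1, so RUNX3 alone of the 4 stayed past 1.5-fold.

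**Figure D5:**
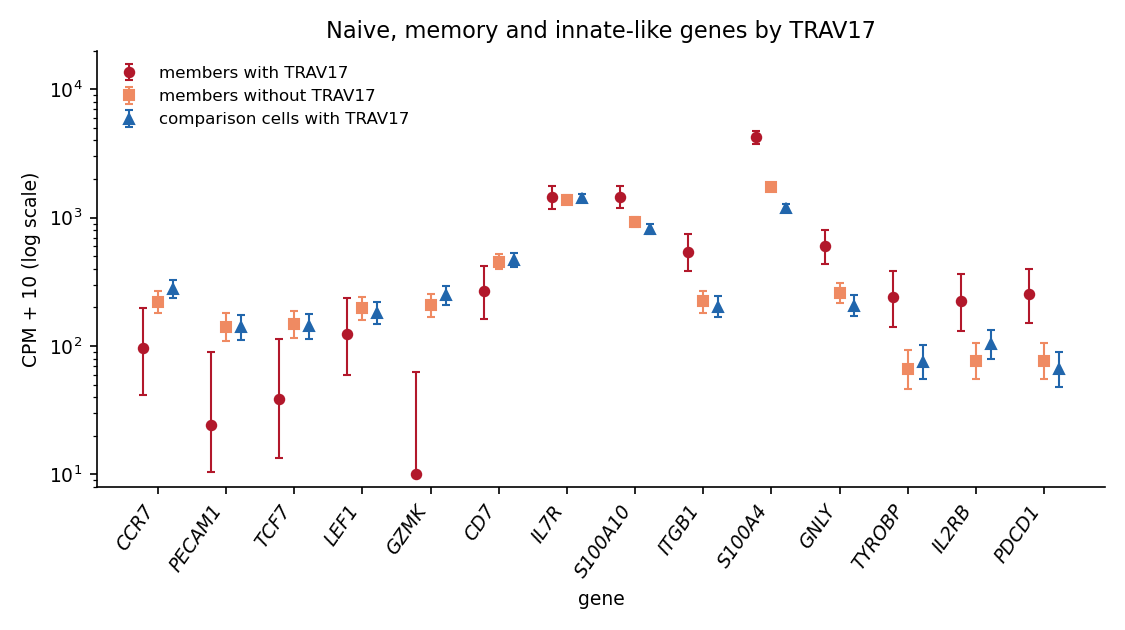
Level of selected naive, memory, cytotoxic and innate-like genes and of PDCD1 (vertical axis, CPM + 10 on a log scale) in the 19 TRAV38-1+ GZMB- cells with TRAV17, the 96 without it and the 121 comparison cells with TRAV17; bars are 95% exact Poisson intervals, which cover counting error only. The memory genes drawn are among those called higher. Of those not drawn, S100A6 (633 CPM in the 19 against 624 in the 96) and VIM (1107 against 1153) lay close together. CCR7, PECAM1, TCF7 and GZMK are lower in the 19 cells than in both other sets, and S100A4, ITGB1, TYROBP, IL2RB and PDCD1 are higher. CCR7 reached the 100 CPM limit through the 96 cells, and TYROBP, IL2RB and PDCD1 through the 19, so their values are a description only.

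TRAV38-1+ GZMB- cells were found in many clusters. With clusters built without TCR genes and without features that lack a symbol, they fell into 10 of 13 clusters, and the 3 clusters that held most of them took 76 of the 115. Clusters 2 and 3 held 0 of them and cluster 4 held 1, and these clusters have GZMB among their leading genes. Comparison cells there numbered 1, 17 and 49, since both sets leave out cells with GZMB, so this was largely fixed by the rule. Cluster 12 also held 0 of them. Cluster 6, led by TYROBP, KLRB1, ZBTB16, CTSW and GNLY, held 27.0% (19.1 to 36.0) of them and 14.3% of comparison cells. With other settings the cluster with most of the cells did not always hold an excess: it took 19.1% of them against 22.2% of comparison cells with 10 components, and 13.04% against 12.6% at a resolution of 2.0. Of the 31 cells in cluster 6, 12 had TRAV17. Cluster 9, led by CXCL13 and PLK2, held 21.7% and 23.2%, and cluster 7, led by CCR9 and DSE, 17.4% and 25.9%. Cluster 5, with SOX4 and CA6 among its leading genes, held 13.04% and 12.7%, and cluster 8, led by LMNA and ITGB1, 13.04% and 10.1%. Among the 20 nearest neighbours of a TRAV38-1+ GZMB- cell 4.04% were such cells too, where 1.5% of all other cells were, or 2.68% of the other cells without GZMB. The gate leaves out cells with GZMB, which have clusters of their own, so some excess over 1.5% was fixed by the rule. With the gate on other segments this share ran from 1.27% to 15.3% with a median of 3.16%, but it grows with the number of cells in the gate. Divided by the share among all other cells it was 2.70 for TRAV38-1, which ranked 4 of 20 behind TRAV10 (8.97), TRAV19 (2.95) and TRAV12-3 (2.74), and the median of the other 19 was 2.13.

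The TRAV38-1 count itself divided the cells in part. STX3 stood at 47.6 CPM in the 38 cells with 1 UMI of TRAV38-1, at 148 CPM in the 15 with 2 and at 105 CPM in the 62 with 3 or more, and the intervals of the 3 sets overlapped. TRAV17 was found in 2.63%, 6.67% and 27.4% of them. KLRB1 stood at 155, 74.0 and 194 CPM and CCR7 at 214, 185 and 183 CPM, again with overlapping intervals. Against comparison cells the log2 ratio of STX3 was 0.62 in cells with at least 2 TRAV38-1 UMIs and 0.53 with at least 3. For RASD1 it was -0.03 and -0.11, and for SLC40A1 0.34 and -0.64. Intervals were not made for these ratios. In cells thinned to 2000 UMIs, 77.7% of TRAV38-1+ GZMB- cells still showed a TRAV38-1 UMI, so a cell read at 0 is not shown to lack the segment.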

How the data were processed

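Cells of 1 rhesus monkey were profiled with an RNA library and a CD4 and CD8 antibody tag library. The authors made the deposited counts, which are raw UMI numbers for each barcode and gene or tag, with Cell Ranger 3.1.0, STAR 2.5.1b and the Mmul_10 genome, per the submitters' processing notes, which also name Seurat 3.1.3. The annotation release was not given in the sources used here. The deposited counts held 35432 genes and 7923 barcodes with 32297887 gene UMIs. The deposited barcode and feature labels are other values, used as names. Symbols came from the deposited feature list and a gene name table.

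Kept barcodes had between 200 and 4000 genes and no more than 20% mitochondrial UMIs. This gave 7601 cells, the number the study analysed, with 31007499 UMIs. No doublet caller was run, and cells with a second TRAV segment were left out in an alternative. Counts were summed over cells and divided by their total (CPM). A gene was called higher or lower when the ratio of CPM + 10 was at least 1.5 and the mean CPM at least 20 (100 for cells with TRAV17). Log2 ratios of single genes in the text are of plain CPM, with exact 95% intervals where given, unless CPM + 10 is named. Median log2 ratios over lists or over all features are of CPM + 10 and have no interval. Shares of cells are of cells at their full depth, and those in cells thinned to 2000 UMIs are given only where thinning is named. Clusters used scanpy 1.11.5 (2000 variable genes, 15 components, 20 neighbours, resolution 1, seed 1). The intervals and the 1.5-fold mark were tried on simulated sums drawn without spread between cells. That trial does not cover genes whose UMIs come several to a cell. Genes named were the 12 highest and 12 lowest ratios with a symbol, genes of fixed lists, and segments in at least 5% of the cells. The cells and the lists were chosen with earlier results of these data known, and genes in members with TRAV17 after their values were seen. Gene positions were looked up by symbol in RefSeq's Mmul_10 annotation. TRAV38-1 was not found there by symbol. 1 gene of the naive list is not reported here.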

Additional observations from a re-analysis of the deposited data

How the results depend on the processing

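With 1 library there is no replicate to leave out, and a gene rests on few transcripts: 20 CPM is about 10 UMIs over the 115 cells. No paired analysis was possible because there is 1 library of each kind from 1 animal and no groups to pair. The counts of features past 1.5-fold depended on most settings, against 78 higher and 54 lower as reported. They stayed within 1.5 times in 4 of 14 alternatives (92 and 59 with a mitochondrial limit of 10%, 75 and 59 against cells with another named TRAV segment, 98 and 63 without cells with TRAV17, and 79 and 52 without the comparison cell with most HBA). In the other 10 they were 171 and 112 with at least 2 TRAV38-1 UMIs per cell, 254 and 156 with at least 3 (62 cells), 246 and 117 against cells with TRAV13-1 in place of the comparison cells, 169 and 108 with a mean over cells, 326 and 202 after thinning, 216 and 126 with 1 CPM added in place of 10, 9 and 7 with 50 CPM, 199 and 180 without cells that had another named TRAV segment, and 177 and 271 with no minimum CPM (16009 features). Without the cell with most UMIs of each feature on either side, an alternative chosen after seeing the data like those on cells with TRAV17, they were 35 and 131. TRAV39 fell to 1.79% of cells after thinning. The largest share in 1 cluster was 40.0% at a resolution of 0.5 (24.2% of comparison cells) and 13.04% at 2.0 (12.6%), and 19.1% with 10 components (22.2%). With at least 2 TRAV38-1 UMIs 2.60% of the neighbours were cells of the same kind, against 1% of all other cells, a ratio of 2.60 beside 2.70 as reported. The log2 ratios of STX3, SLC40A1 and RASD1, the tag medians, the TRAV17 share and the 5 genes followed in cells with TRAV17 stayed within their counting intervals or quartiles under the alternatives run for each. The causes of these shifts were not tested.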
